A study of Mus musculus with 48 samples.

Results

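Endothelial cells, pericytes and the smooth muscle of vessels were represented in these data by 36 listed genes, among them the junction proteins and transporters of the blood-brain barrier. A gene was measured by the probe set whose platform annotation named that gene alone, and where several did, by the probe set with the highest mean over all 48 arrays. On this rule 33 of the 36 genes had a reading, out of 17097 genes with a probe set of their own. Itm2a was not listed under its symbol, Abcc9 appeared only on 2 probe sets shared with another symbol and Tagln only on 1. Tia1 knockout (KO) mice and wild-type (WT) mice were compared at 3 and 6 months of age in 4 tissues, the liver and the nervous tissues midbrain, spinal cord and cerebellum, which gave 16 groups of 3 arrays. In the KO mice the Tia1 gene, which encodes an RNA-binding protein of stress granules, had been targeted by homologous recombination at exon 4, which left a shortened mRNA but no full-length protein, in every cell of the animal. The KO line had been bred into C57BL6/J and kept by homozygous matings. The WT mice were C57BL6/J animals from a vendor according to the methods, whereas the series design calls them littermates, so a difference between the colonies cannot be told apart from the genotype. The labels name no further allele and no treatment in either genotype. Each number is a log2 RMA signal of the whole tissue, and a difference between 2 means is a log2 difference, with KO minus WT above 0 where the gene was higher in KO mice. The p-values rest on the spread between mice within a group, pooled over all 16 groups of the 4 tissues. They do not measure the spread of the 3 mice of a single group. The small number of arrays limits their precision: an exact permutation of 3 mice against 3 could not go below a 2-sided p of 0.1.

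The walls of brain capillaries are formed by endothelial cells that seal their contacts with tight junctions, among them claudin 5, and that carry transporters for glucose, amino acids and organic anions as well as efflux pumps for foreign compounds. Pericytes wrap these capillaries and, together with Wnt signals acting through LEF/TCF factors, keep the barrier in place, while arterioles have a coat of smooth muscle. Liver sinusoids are lined by a fenestrated endothelium that lacks such a barrier, and several of the same transporters work in hepatocytes instead.

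The promoters of Ctla2a, Cldn5 and Ly6c1 are printed because these 3 endothelial genes were higher in KO than in WT midbrain at 6 months. Each window runs from 250 bases before to 50 bases after the first start site that RefSeq lists for the gene in GRCm38.p6, and capitals mark matches on either strand to GGAA, the core of sites for ETS factors such as Erg, and to CTTTGA, a core of LEF/TCF sites. Ctla2a lies at chr13:60936576-60936875 on the minus strand, Cldn5 at chr16:18776597-18776896 on the plus strand and Ly6c1 at chr15:75048788-75049087 on the minus strand.
Ctla2a: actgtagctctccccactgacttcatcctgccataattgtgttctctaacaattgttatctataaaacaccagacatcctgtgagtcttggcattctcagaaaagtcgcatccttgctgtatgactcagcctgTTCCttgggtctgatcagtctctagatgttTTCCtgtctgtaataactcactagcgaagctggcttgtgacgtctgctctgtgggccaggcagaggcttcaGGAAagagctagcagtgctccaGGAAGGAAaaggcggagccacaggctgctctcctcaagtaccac
Cldn5: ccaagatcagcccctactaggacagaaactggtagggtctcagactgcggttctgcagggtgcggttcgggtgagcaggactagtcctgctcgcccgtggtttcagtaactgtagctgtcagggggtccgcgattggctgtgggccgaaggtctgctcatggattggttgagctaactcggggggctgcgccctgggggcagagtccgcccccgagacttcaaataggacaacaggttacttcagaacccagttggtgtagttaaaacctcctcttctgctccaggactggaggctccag
Ly6c1: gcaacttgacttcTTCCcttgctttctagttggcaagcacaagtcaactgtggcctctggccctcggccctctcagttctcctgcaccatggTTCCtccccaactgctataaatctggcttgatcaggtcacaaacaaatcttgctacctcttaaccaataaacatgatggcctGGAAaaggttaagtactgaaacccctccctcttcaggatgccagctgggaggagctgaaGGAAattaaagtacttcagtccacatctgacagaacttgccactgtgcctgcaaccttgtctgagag
GGAA was found 5 times in the Ctla2a window, 4 times in that of Ly6c1 and not in that of Cldn5, and CTTTGA in none of the 3. Of all 32851 promoter windows of this length 96% held GGAA and 16% held CTTTGA, against 31 and 3 of the 33 windows listed for 23 of the genes. These matches describe the letters of the windows and are not binding sites.

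The exon 4 probe set of Tia1 separated the genotypes in nervous tissue. It read 5.14 to 5.52 in KO and 7.49 to 7.70 in WT spinal cord, 6.38 to 6.61 in KO and 8.17 to 8.42 in WT cerebellum, and 5.66 to 6.28 in KO and 8.02 to 8.31 in WT midbrain. In liver the range of the KO arrays, 4.56 to 5.26, touched that of the WT arrays, 5.18 to 5.63. The tissues carried their own markers, with 6 hepatocyte genes averaging 12.59 to 12.72 in KO and 12.55 to 12.67 in WT liver. Skeletal muscle markers set some arrays apart: the mean of 5 such genes was 5.98, 7.24 and 8.46 in KO and 3.89, 2.85 and 10.59 in WT spinal cord at 3 months, 7.28, 3.01 and 3.19 in KO and 3.60, 3.13 and 4.61 in WT spinal cord at 6 months, and reached 8.43 in a KO liver at 3 months. Correlations between arrays of a group were 0.985 or higher, and the median within-group SD over all probe sets was 0.115 to 0.133 for the nervous tissues and 0.218 for liver. All 33 genes exceeded the array median in at least 1 group, but Tie1 and Lef1 did so in only 2 groups, Pecam1 in 6 and Erg in 7, so that these readings lie near the floor of the arrays. In whole tissue, fewer cells of a type and less RNA per cell cannot be told apart.

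The first question was whether the loss of Tia1 changed vascular genes in the nervous system. Few of the 33 genes did so past the threshold, and those that did were endothelial and higher in KO mice at 6 months: Ctla2a in all 3 nervous tissues, and Cldn5 and Ly6c1 in midbrain. Pericyte genes, receptor kinases, transcription factors and transporters gave no call there in limma's test of each comparison. Nested F decisions test the 8 genotype comparisons jointly. The study's methods name a moderated F-statistic but not this option. Besides Ctla2a, Cldn5 and Ly6c1 these decisions called Tek lower in KO midbrain at 3 months. At 6 months they called Flt1 and Vwf higher in KO midbrain and Emcn lower in KO cerebellum and midbrain. They also called Ctla2a higher in all 3 tissues at 3 months, and Ly6c1 higher in spinal cord at 3 months. At 3 months no gene of the 33 passed the adjusted p of 0.05 from limma in spinal cord, cerebellum or midbrain. An unadjusted p under 0.05 was found there for 5, 7 and 5 of them, beside 5.21%, 7.95% and 6.53% of all probe sets. At 6 months it was found for 7, 7 and 10 of them, beside 3.79%, 4.97% and 4.61%. Of all 45037 probe sets tested at 3 months, spinal cord had 0.311% called, cerebellum 0.548% and midbrain 0.242%. At 6 months spinal cord had 1 gene higher and none lower, cerebellum 1 and none, and midbrain 3 and none, where 0.162%, 0.182% and 0.142% of all probe sets were called in either direction and 0.109%, 0.0799% and 0.0822% were called higher. The median change of the 33 genes was 0.09, 0.03 and -0.08 at 3 months in spinal cord, cerebellum and midbrain, and 0.03, 0.09 and 0.07 at 6 months, beside -0.01, 0.02 and -0.01 and then 0.00, 0.00 and 0.00 over all probe sets. The median of the group thus stayed between -0.08 and 0.09 in nervous tissue. The 3 tissues of an age came from the same mice and are not independent tests of the genotype.

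**Figure D1:**
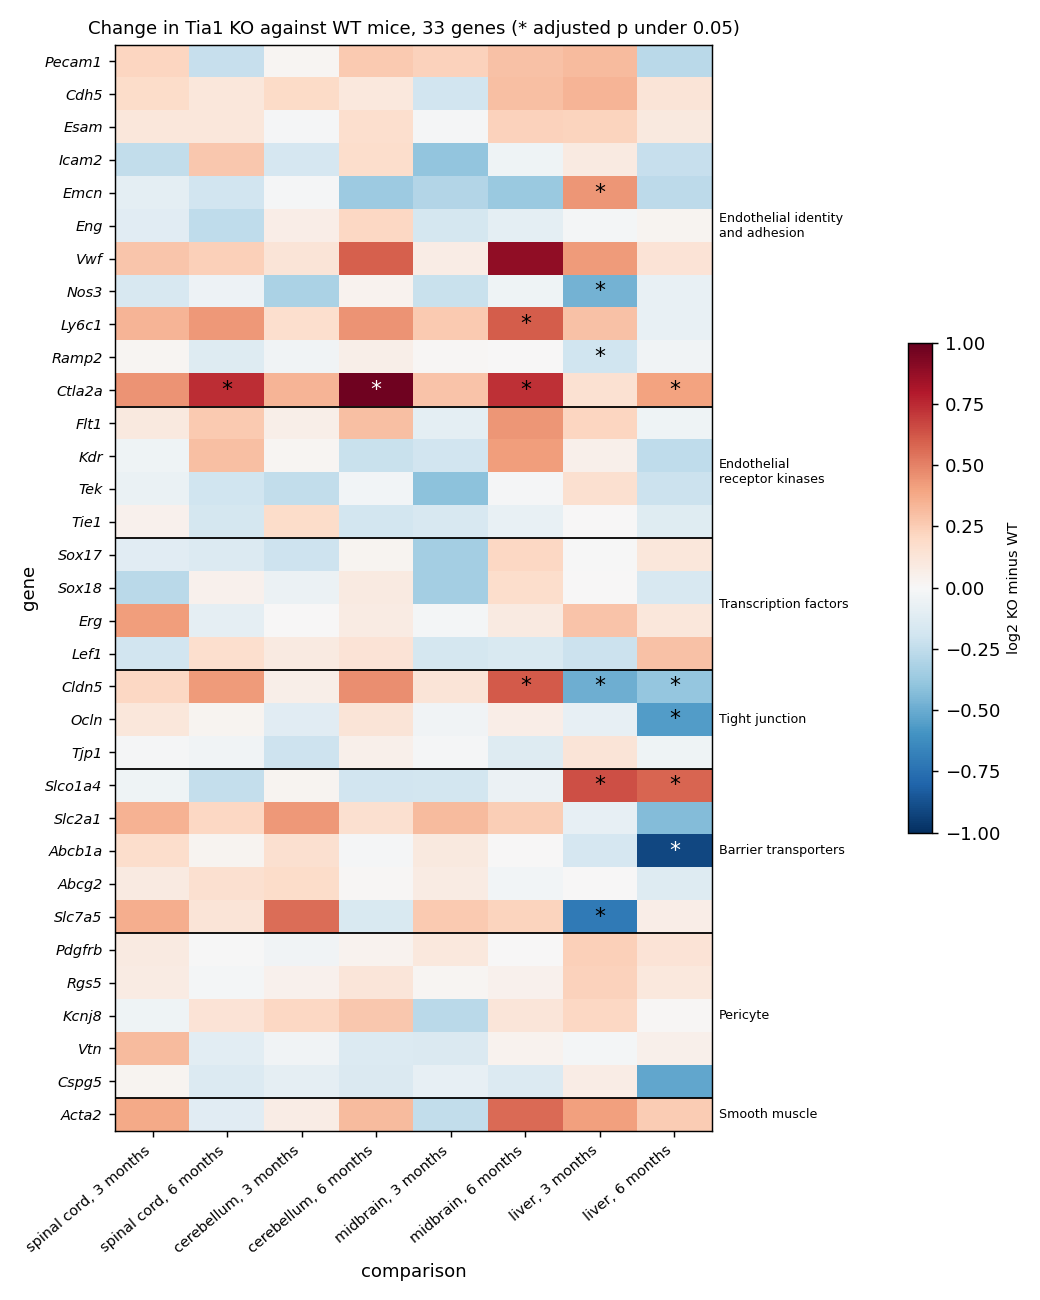
Log2 difference of Tia1 KO minus WT mice for the 33 genes (rows, grouped by role) in 8 tissue and age comparisons (columns), red for higher in KO, blue for lower, with an asterisk where the adjusted p from limma was under 0.05 (n = 3 arrays per group). Ctla2a is the only row with an asterisk in all 4 tissues at 6 months, and the transporter and junction asterisks lie in the 2 liver columns apart from Cldn5 in midbrain.

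Ctla2a, which encodes a small protein related to the propeptide of cathepsins and is expressed in mouse endothelium, changed most. In spinal cord at 6 months it read 6.90, 6.76 and 6.64 in KO mice and 6.02, 5.99 and 6.06 in WT mice. In cerebellum of the same mice it read 5.72, 5.36 and 5.66 in KO and 4.74, 4.55 and 4.53 in WT mice, and in midbrain 5.88, 5.44 and 5.60 in KO and 4.80, 5.04 and 4.90 in WT mice. The groups did not overlap in any of the 3 tissues, and KO 122970 was the highest array each time. Spinal cord differed by 0.74 (SE 0.14, 1.67-fold, adjusted p = 0.00402), cerebellum by 0.97 (SE 0.14, 1.96-fold, adjusted p = 3.75e-05) and midbrain by 0.73 (SE 0.14, 1.66-fold, adjusted p = 0.00639). The cerebellum call stayed when each of the 6 mice was left out in turn, the spinal cord call was lost without WT 2 (adjusted p = 0.0608), and the midbrain call without WT 1 or WT 3 (adjusted p = 0.055 to 0.126). With midbrain fitted alone its adjusted p was 0.0559, and with the mean over both probe sets 0.092. At 3 months Ctla2a differed by 0.45, 0.34 and 0.28 in spinal cord, cerebellum and midbrain, which the nested F decisions called. None of these passed limma's test (adjusted p = 0.274, 0.409 and 0.746). The age difference of the KO effect was 0.29, 0.63 and 0.44 (SE 0.19) and was not called either (adjusted p = 1, 0.516 and 1). A further probe set of Ctla2a gave 0.78 (adjusted p = 0.0024) in spinal cord and 0.64 (adjusted p = 0.0317) in cerebellum at 6 months, but 0.30 (adjusted p = 1) in midbrain, where its KO and WT arrays overlapped. The brighter probe set is of a kind that can bind more than 1 transcript, so that its signal cannot be assigned to Ctla2a alone when the near-identical Ctla2b is expressed.

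Ly6c1, a GPI-anchored surface protein of brain endothelium, read 9.33, 9.06 and 9.19 in KO and 8.59, 8.55 and 8.61 in WT midbrain at 6 months. The KO arrays were all above the WT arrays, as they were in each of the 6 nervous tissue comparisons. The midbrain difference of 0.61 (SE 0.13, adjusted p = 0.0355) passed the test, but leaving out any of the 6 mice ended the call (adjusted p = 0.0727 to 0.243). The other 5 nervous differences lay between 0.17 and 0.45 and were not called by limma's test. The nested F decisions also called Ly6c1 higher in spinal cord at both ages and in cerebellum at 6 months. Ly6c1 is also carried by monocytes, and the mean of 5 blood cell markers was 5.31 to 5.47 in KO and 5.27 to 5.34 in WT midbrain at 6 months. No call was made among them, beside 0.142% of all probe sets in that comparison. None of the 5 is specific to monocytes, and the part of monocytes in the Ly6c1 values was not tested.

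Vwf, the von Willebrand factor stored in endothelial granules, read 6.94, 6.26 and 6.11 in KO and 5.71, 5.67 and 5.27 in WT midbrain at 6 months. These groups did not overlap, nor did those in cerebellum, at 6.55, 5.95 and 6.25 in KO and 5.64, 5.66 and 5.65 in WT mice. Neither the midbrain difference of 0.88 (SE 0.22, adjusted p = 0.113) nor the cerebellum difference of 0.60 (SE 0.22, adjusted p = 0.653) passed the test. KO 122970 was the highest array in both tissues. Vwf lies on chromosome 6, as Tia1 does, 295 array genes away.

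The other 8 measured genes of endothelial identity and adhesion gave no call in nervous tissue by limma's test of each comparison. Emcn, a mucin of venous and capillary endothelium, had a lower mean in KO mice in all 6 nervous comparisons, with differences of -0.37 to -0.01, the farthest from 0 in midbrain at 6 months (adjusted p = 0.798), where the nested F decisions called it, as they did in cerebellum at 6 months. Pecam1 and Cdh5, which hold endothelial cells together, differed by -0.23 to 0.29 and by -0.19 to 0.30. Esam, Icam2, Eng and Nos3 lay between -0.39 and 0.27. Ramp2, a partner of the adrenomedullin receptor, differed by -0.13 to 0.06 on its brightest probe set. That reading is uncertain, because 4 further probe sets of the array are annotated to both Ramp2 and the nuclear RNA Malat1. A dimmer probe set of Ramp2 alone read 7.56, 7.57 and 7.53 in KO and 6.80, 7.05 and 6.82 in WT cerebellum at 3 months, and 8.05, 7.84 and 8.02 in KO and 7.13, 7.32 and 7.40 in WT cerebellum at 6 months. It was thus higher in KO mice by 0.67 (adjusted p = 6.03e-06) and 0.69 (adjusted p = 3.25e-06), where the brightest probe set gave -0.03 and 0.06. Another bright probe set of Ramp2 alone, at 11.51 to 12.05 in KO and 11.58 to 11.88 in WT cerebellum, gave -0.07 and 0.13 with overlap (adjusted p = 0.971 and 1), so that 1 of 3 probe sets differed.

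**Figure D2:**
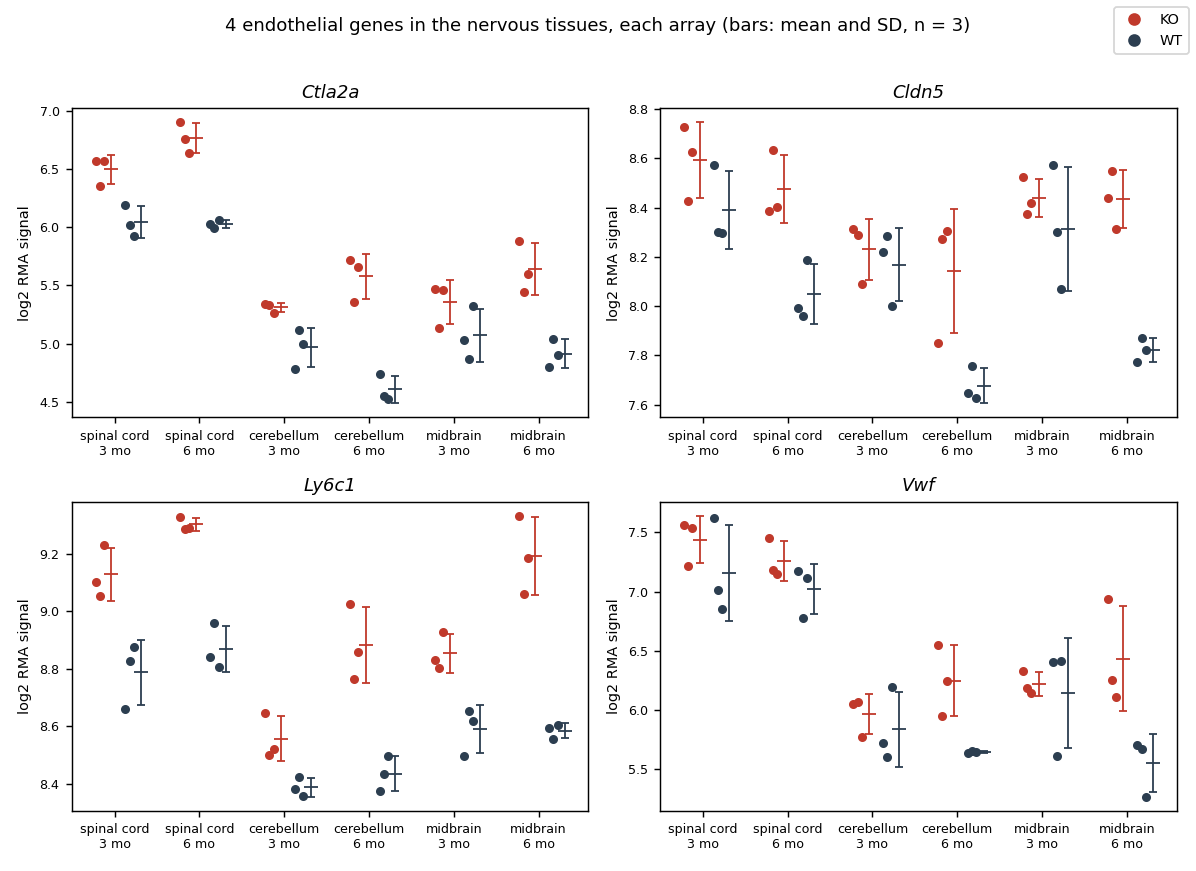
Log2 RMA signal of Ctla2a, Cldn5, Ly6c1 and Vwf in each array of spinal cord, cerebellum and midbrain at 3 and 6 months (red, KO; dark blue, WT; bars, mean and SD of 3 arrays). At 6 months the KO points lie above the WT points for Ctla2a, Cldn5 and Ly6c1 in all 3 tissues and for Vwf in cerebellum and midbrain.

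Of the receptor kinases none passed limma's test of a single comparison in nervous tissue, while the nested F decisions called Flt1 and Tek in the midbrain comparisons given next. Flt1, a VEGF receptor, read 7.87, 7.97 and 8.06 in KO and 7.59, 7.42 and 7.56 in WT midbrain at 6 months, a difference of 0.44 (SE 0.12, adjusted p = 0.211) without overlap. Tek, the angiopoietin receptor, read 6.11, 6.17 and 6.33 in KO and 6.52, 6.65 and 6.66 in WT midbrain at 3 months, and these groups did not overlap either, with a difference of -0.41 (SE 0.11, adjusted p = 0.134). At 6 months the same comparison gave -0.01. Kdr, the main signalling receptor for VEGF, differed by -0.22 to 0.41 over the 6 comparisons and Tie1, near the floor, by -0.19 to 0.18. Among the transcription factors Erg read 4.57, 4.71 and 4.60 in KO and 4.47, 4.10 and 4.07 in WT spinal cord at 3 months (0.42, SE 0.17, adjusted p = 0.752). Those arrays did not overlap, but at 6 months the difference was -0.09. Sox17 and Sox18, factors of arterial and lymphatic endothelium, differed by -0.34 to 0.21. Lef1, the nuclear partner of beta-catenin, differed by -0.19 to 0.17.

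Cldn5, the dominant claudin of brain endothelium, was the only tight junction gene called in the nervous system. In midbrain at 6 months it read 8.44, 8.55 and 8.32 in KO mice and 7.77, 7.87 and 7.82 in WT mice, with no overlap, and rose by 0.61 (SE 0.13, 1.53-fold, adjusted p = 0.0209). Without any 1 mouse other than KO 122973 the call was lost (adjusted p = 0.0669 to 0.238). In spinal cord it read 8.39, 8.63 and 8.40 in KO and 7.99, 7.96 and 8.19 in WT mice, and in cerebellum 7.85, 8.27 and 8.31 in KO and 7.65, 7.76 and 7.63 in WT mice. These groups did not overlap but the differences of 0.43 (adjusted p = 0.428) and 0.47 (adjusted p = 0.205) failed limma's test, while the nested F decisions called both. At 3 months the groups overlapped in all 3 tissues (0.06 to 0.20). Ocln and Tjp1, which encode occludin and the scaffold ZO-1, differed by -0.21 to 0.13.

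No transporter was called in nervous tissue. Slc2a1, the glucose carrier of the barrier, had a higher mean in KO mice in 6 of 6 comparisons, by 0.16 to 0.44. At 3 months it read 9.30, 9.30 and 9.28 in KO and 8.71, 8.99 and 8.87 in WT cerebellum, 10.05, 10.15 and 10.09 in KO and 9.77, 9.70 and 9.78 in WT spinal cord, and 9.74, 9.76 and 9.77 in KO and 9.44, 9.41 and 9.48 in WT midbrain. Those groups did not overlap, yet the adjusted p was 0.348, 0.921 and 0.791, and a further probe set of the gene gave 0.42, 0.40 and 0.42 (adjusted p = 0.0734, 0.164 and 0.132). Slc7a5, the large neutral amino acid carrier, read 8.32, 8.51 and 8.40 in KO and 7.99, 7.73 and 7.84 in WT cerebellum at 3 months (0.56, SE 0.22, adjusted p = 0.418). Its KO arrays were above the WT arrays in all 3 nervous tissues at 3 months and in none at 6 months, where the differences were -0.16 to 0.23. The efflux pumps Abcb1a and Abcg2 differed by -0.03 to 0.18, and the organic anion carrier Slco1a4 by -0.24 to 0.03. The pericyte genes lay near 0 too: Pdgfrb, the receptor that recruits pericytes, and Rgs5 differed by -0.03 to 0.12, Kcnj8, a potassium channel subunit, and Vtn, vitronectin, by -0.27 to 0.32, and Cspg5 by -0.15 to 0.03. Cspg5 is a proteoglycan known from neurons and glia rather than from pericytes. Acta2, the actin of vascular smooth muscle, read 8.94, 8.71 and 8.26 in KO and 8.12, 8.57 and 7.53 in WT midbrain at 6 months, with overlap (0.56, SE 0.24, adjusted p = 0.962).

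Genes of the same pathways outside the 33 moved in small numbers. Of 14 further barrier transport genes, Mfsd2a, the lipid transporter of brain endothelium that restrains transcytosis, rose in KO mice. In midbrain at 3 months it read 8.16, 8.14 and 8.36 in KO and 7.23, 7.32 and 7.18 in WT mice, and at 6 months 8.49, 8.41 and 8.64 in KO and 7.71, 7.66 and 7.77 in WT mice. The differences were 0.97 (SE 0.16, adjusted p = 0.000914) and 0.80 (SE 0.16, adjusted p = 0.017), and in cerebellum at 3 months 0.66 (adjusted p = 0.0455). Its KO and WT arrays did not overlap in any of the 6 nervous comparisons, with differences of 0.60 and 0.46 in spinal cord and 0.58 in cerebellum at 6 months where it was not called. The midbrain call at 3 months stayed without each of the 6 mice, that at 6 months was lost without any 1 of them (adjusted p = 0.0501 to 0.168), and that in cerebellum stayed only without WT 1 (0.0567 to 0.252 otherwise). The cerebellum call was also lost with that tissue fitted alone (adjusted p = 0.0664) and with quantile normalization within tissues (0.0825). Slc22a8, an organic anion transporter, was lower in KO midbrain at 3 months (-0.71, adjusted p = 0.0471), a call lost without any 1 mouse (0.113 to 0.285). This call was also lost with quantile normalization within tissues (adjusted p = 0.123) and with the mean over the gene's probe sets (0.0723). Among 18 further endothelial genes Adgrl4, an adhesion receptor of angiogenic endothelium, read 7.19, 7.02 and 6.86 in KO and 6.22, 6.63 and 6.29 in WT midbrain at 6 months and rose by 0.64 (SE 0.12, adjusted p = 0.00901), a call lost without WT 1, WT 3 or KO 122970 (0.0721 to 0.129). None of 9 VEGF and angiopoietin ligands, 13 Notch, TGF-beta and S1P genes, 15 measured Wnt barrier genes, 8 junction genes, 9 pericyte genes, 7 smooth muscle genes or 7 basement membrane genes passed limma's test in a nervous tissue. Over all probe sets 0.142% to 0.548% were called in those comparisons, so that no call in lists of this size says little about them. Of the markers of other cells, none of 6 microglial, 6 astrocyte, 6 meningeal or 5 blood cell genes was called in midbrain at 6 months, beside 0.142% of all probe sets. At that share the absence of a call does not show that these cells were unchanged. The mean of the 6 astrocyte markers was 7.98 to 8.07 in KO and 7.94 to 7.97 in WT midbrain, and that of the 6 microglial markers 5.39 to 5.59 in KO and 5.55 to 5.67 in WT midbrain. In spinal cord at 6 months Alb, a hepatocyte gene, read 5.76, 5.73 and 2.77 in KO and 2.43, 2.49 and 2.58 in WT mice (2.25, adjusted p = 0.00317). The Alb call stayed only without WT 3 or KO 122973 (adjusted p = 0.0532 to 0.161 otherwise) and was lost with spinal cord fitted alone (0.399). The other 5 hepatocyte markers were not called, and the part of such RNA in the spinal cord values was not tested.

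Age was compared within each genotype, with 6 months set against 3 months. The labels repeat the same mouse numbers at both ages, but tissues were taken after sacrifice, so mice of the 2 ages were different animals. Age and cohort therefore cannot be told apart, and these contrasts share their arrays with the genotype contrasts. In KO mice no gene of the 33 was called in spinal cord, cerebellum or midbrain, where 0.091%, 0.0844% and 0.00444% of all probe sets were. An unadjusted p under 0.05 was reached there by 4, 2 and 6 of the 33, beside 3.01%, 5.69% and 3.29% of all probe sets. In WT mice 1 gene fell in each, beside 0.242%, 1.13% and 0.258% of all probe sets. Kdr read 5.31, 5.42 and 5.55 in WT spinal cord at 6 months and 6.09, 5.97 and 6.07 at 3 months, a difference of -0.62 (SE 0.13, adjusted p = 0.0193). In WT midbrain it read 5.26, 5.28 and 5.07 at 6 months and 6.01, 5.87 and 5.82 at 3 months (-0.69, SE 0.13, adjusted p = 0.00469). Cldn5 read 7.65, 7.76 and 7.63 in WT cerebellum at 6 months and 8.22, 8.29 and 8.001 at 3 months (-0.49, SE 0.13, adjusted p = 0.0427), and it differed by -0.49 in WT midbrain too (adjusted p = 0.107). None of these groups overlapped. In KO mice Cldn5 differed by -0.12, -0.09 and -0.00 over the same ages in spinal cord, cerebellum and midbrain, whereas the KO effect itself did not differ with age past the test (0.22, 0.40 and 0.49, SE 0.18, adjusted p = 1, 0.945 and 0.885). For Kdr the age difference of the KO effect was 0.35 in spinal cord and 0.60 in midbrain (SE 0.18, adjusted p = 1 and 0.595). The Kdr call in spinal cord stayed only without WT 3 of 6 months (adjusted p = 0.0513 to 0.14 otherwise), that in midbrain was lost without WT 1 of 3 months or WT 3 of 6 months (0.0611 to 0.0888), and the Cldn5 call stayed only without WT 3 of 3 months (0.121 to 0.162 otherwise). With its tissue fitted alone the Kdr call in spinal cord (0.0976) and the Cldn5 call in cerebellum (0.0901) were lost. No gene of the 33 had a KO effect that differed between the ages in spinal cord, cerebellum or midbrain, where 0.0533%, 0.0577% and 0.0444% of all probe sets did. An unadjusted p under 0.05 for this difference was reached by 4, 3 and 10 of the 33, beside 3.85%, 4.85% and 4.78% of all probe sets.

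Liver gave more calls, on arrays where many probe sets of all kinds were called. At 3 months 2 genes rose and 4 fell in KO liver, 6 of 33, beside 9.44% of all probe sets (4.92% higher and 4.53% lower). At 6 months 2 rose and 3 fell, 5 of 33, beside 11.5% (5.68% higher and 5.81% lower). The median change of the 33 genes was 0.09 at 3 months and -0.04 at 6 months, beside 0.00 for all probe sets at both ages. When the liver arrays were fitted without the other tissues, whose smaller spread enters the common error, none of the 33 genes was called at either age.

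Transporters of hepatocytes and of the barrier led the liver calls. Slco1a4, an organic anion transporter of the barrier and of hepatocytes, read 9.80, 9.80 and 10.04 in KO and 9.33, 9.73 and 8.63 in WT liver at 3 months, and 9.91, 9.66 and 9.66 in KO and 9.02, 9.29 and 9.19 in WT liver at 6 months. All KO arrays lay above the WT arrays of their age, and the gene rose by 0.65 (SE 0.13, adjusted p = 0.0012) and by 0.58 (SE 0.13, adjusted p = 0.00308). Both calls stayed without each of the mice, although the 3-month value was 0.35 without WT 3, the lowest array, and neither was reached with liver fitted alone (adjusted p = 0.317 and 0.331). Slco1a4 lies on chromosome 6, 417 array genes from Tia1.

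Abcb1a, a P-glycoprotein that pumps drugs out of cells, read 5.06, 4.65 and 4.64 in KO and 5.58, 5.72 and 5.78 in WT liver at 6 months. It fell by 0.91 on the log2 scale (SE 0.12, adjusted p = 1.03e-06), without overlap and without any mouse deciding the call, though not with liver alone (adjusted p = 0.0537). At 3 months it read 4.29, 4.50 and 3.78 in KO and 4.23, 4.31 and 4.52 in WT liver (-0.17, adjusted p = 0.421). A further probe set of Abcb1a gave -1.10 (adjusted p = 3.81e-05) at 6 months and 0.80 (adjusted p = 0.0027) at 3 months, so the probe sets differ in direction at the younger age. The further one read 2.51 to 4.08 in those 6 livers, and its KO and WT arrays overlapped. Slc7a5 read 4.34, 4.66 and 5.80 in KO and 5.97, 5.60 and 5.35 in WT liver at 3 months, and fell by 0.71 (SE 0.22, adjusted p = 0.0398) with overlapping groups. That call stayed only without KO 122973 or without WT 3 (adjusted p = 0.0847 to 0.321 otherwise). Slc2a1 was not called on its main probe set at 6 months (-0.43, adjusted p = 0.0818), whereas a further one fell by 0.51 (adjusted p = 0.00189).

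Of the 3 tight junction genes Cldn5 fell in KO liver at both ages and Ocln at 6 months, while Tjp1 was not called (0.13 at 3 months and -0.04 at 6 months). Cldn5 read 6.93, 6.75 and 6.49 in KO and 7.21, 7.31 and 7.11 in WT liver at 3 months, and 6.37, 6.44 and 6.57 in KO and 7.08, 6.82 and 6.64 in WT liver at 6 months. There was no overlap at either age, and the differences were -0.49 (SE 0.13, adjusted p = 0.0108) and -0.39 (SE 0.13, adjusted p = 0.0421). The first was lost without WT 2 or KO 122973 (adjusted p = 0.0585 to 0.0999), and the second stayed only without WT 3 or KO 122973 (0.0902 to 0.269 otherwise). Cldn5 was thus lower in KO liver and higher in KO midbrain at 6 months. Ocln read 7.63, 7.65 and 7.42 in KO and 8.05, 7.95 and 8.38 in WT liver at 6 months, with no overlap, and fell by 0.56 (SE 0.14, adjusted p = 0.00483). The Ocln call was lost without WT 3 (adjusted p = 0.0575) and in the nested F decisions, which also lost the liver calls of Slc7a5, Nos3 and Ramp2 at 3 months. At 3 months its groups overlapped (-0.08).

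Among the endothelial genes Ctla2a read 6.99, 6.41 and 6.48 in KO and 6.14, 6.14 and 6.40 in WT liver at 6 months, just without overlap, and rose by 0.40 (SE 0.14, adjusted p = 0.0497). It stayed called only without WT 3 or KO 122972 (adjusted p = 0.0506 to 0.323 otherwise), and not with quantile normalization within tissues (0.0546), another prior (0.0547) or the mean over both probe sets (0.0862). Emcn read 5.59, 5.84 and 5.27 in KO and 4.94, 5.30 and 5.14 in WT liver at 3 months, and rose by 0.44 (SE 0.14, adjusted p = 0.0416) with overlap. The Emcn call stayed only without WT 2 or KO 122973 (0.0841 to 0.273 otherwise). Nos3, the endothelial nitric oxide synthase, read 5.19, 5.28 and 5.56 in KO and 5.20, 6.25 and 6.02 in WT liver at 3 months (-0.48, SE 0.16, adjusted p = 0.0476). It stayed called only without WT 1 or KO 122973 (0.148 to 0.355 otherwise), and WT 1 was level with the KO arrays. Ramp2 read 11.86, 12.07 and 11.91 in KO and 12.18, 12.19 and 12.07 in WT liver at 3 months (-0.20, SE 0.07, adjusted p = 0.0487), a call kept only without WT 3 or KO 122972 (0.108 to 0.203 otherwise). A dimmer probe set of Ramp2 differed by 0.28 in the opposite direction (adjusted p = 0.0322), another bright one gave -0.21 with overlap (adjusted p = 0.119), and the mean over the probe sets gave no call (adjusted p = 0.747). The receptor kinases, transcription factors, pericyte genes and Acta2 gave no call in liver. Cspg5, at 3.02, 3.31 and 2.77 in KO and 3.91, 2.86 and 3.87 in WT liver at 6 months, was below the array median in both genotypes (-0.52, adjusted p = 0.0623).

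**Figure D3:**
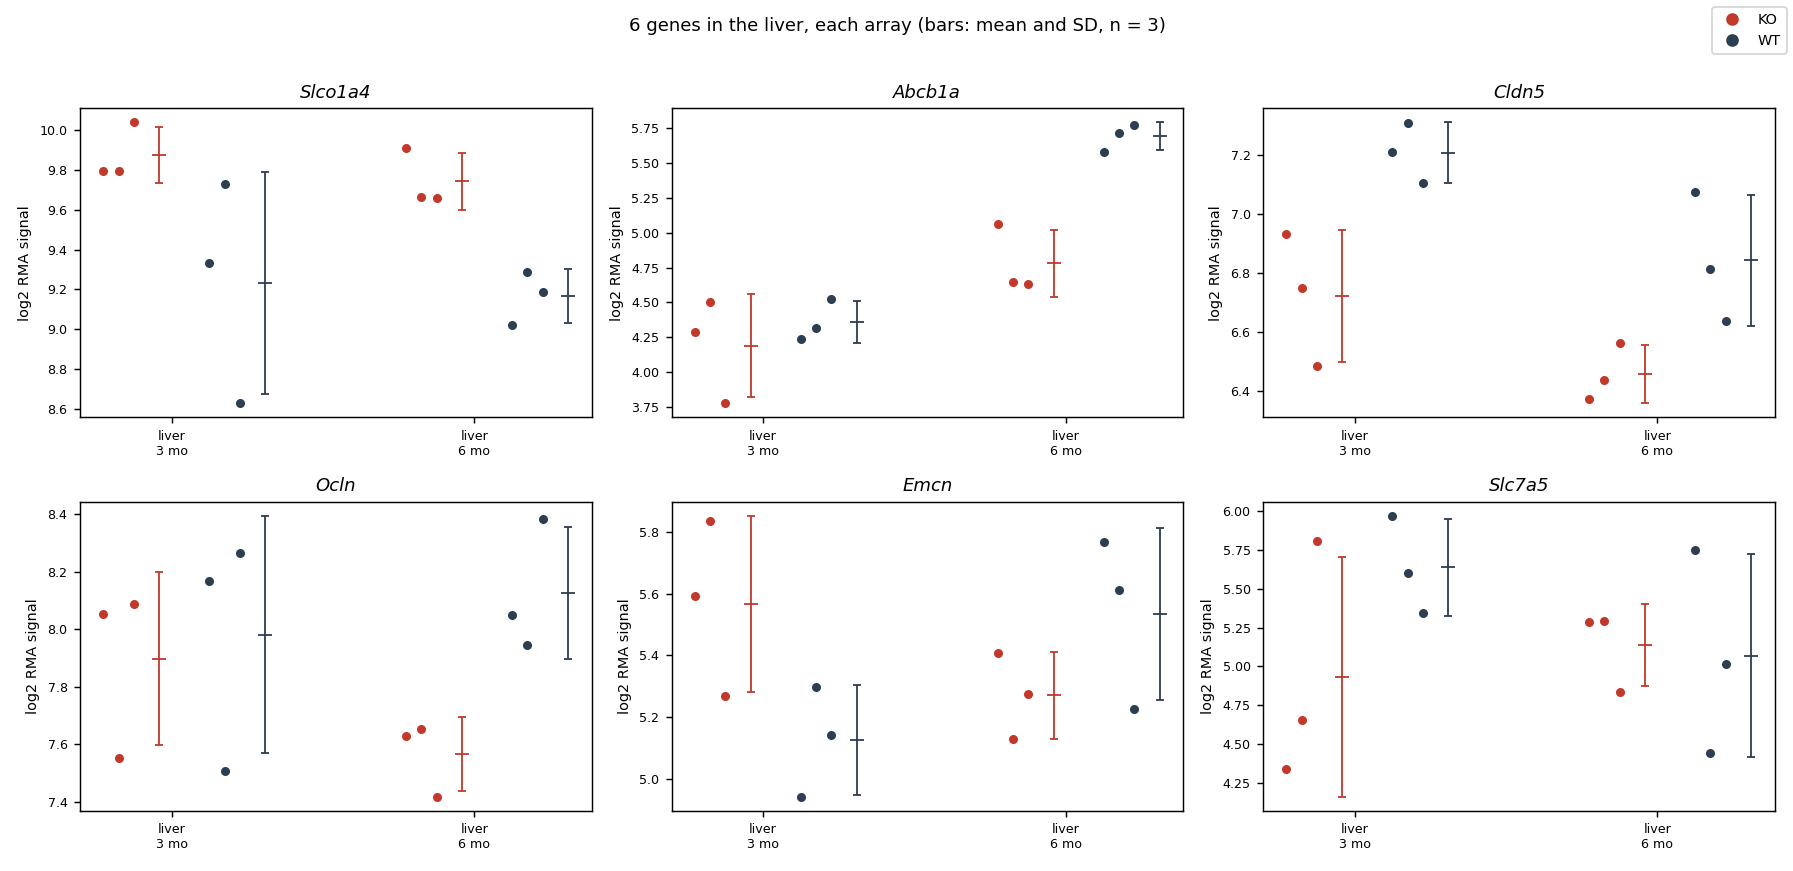
Log2 RMA signal of Slco1a4, Abcb1a, Cldn5, Ocln, Emcn and Slc7a5 in each liver array at 3 and 6 months (red, KO; dark blue, WT; bars, mean and SD of 3 arrays). Slco1a4 lies higher and Cldn5 lower in KO liver at both ages, while Abcb1a and Ocln separate at 6 months.

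With age, Abcb1a on its main probe set rose and Ly6c1 fell in livers of both genotypes. In KO liver 1 gene rose and 4 fell, beside 10.9% of all probe sets (5.68% higher and 5.22% lower), and in WT liver 1 rose and 1 fell, beside 10.7%. Abcb1a was higher at 6 months by 0.59 (adjusted p = 0.00101) in KO liver and by 1.34 (adjusted p = 2.65e-10) in WT liver. A further probe set averaged 3.81 at 3 months and 3.73 at 6 months in KO liver, and 3.02 and 4.83 in WT liver. Ly6c1 read 4.43, 4.08 and 3.92 in KO liver at 6 months and 4.93, 5.54 and 5.30 at 3 months, with no overlap (-1.11, adjusted p = 4.86e-07). Its 6-month readings there lay near the array median of 3.98. In WT liver it differed by -0.74 (adjusted p = 0.000204). None of these 4 calls was lost without a mouse, but that of Abcb1a in KO liver was lost with the mean over its probe sets (adjusted p = 0.111). With liver fitted alone, Abcb1a in WT liver stayed called, while Abcb1a in KO liver (0.261) and Ly6c1 in KO (0.0953) and WT liver (0.206) did not. Pecam1 (-0.51, adjusted p = 0.0197), Icam2 (-0.75, adjusted p = 0.00204) and Acta2 (-0.81, adjusted p = 0.0254) fell in KO liver, and with liver fitted alone none of the 3 was called (adjusted p = 0.328, 0.16 and 0.259). The Pecam1 call was lost without KO 122972 of either age (adjusted p = 0.131 to 0.142), and the Acta2 call stayed only without KO 122972 of 3 months or KO 122970 of 6 months (0.0564 to 0.142 otherwise) and was lost with the mean over its probe sets (0.229). The KO effect differed between the ages for 2 of the 33 genes in liver, Emcn and Abcb1a, beside 7.14% of all probe sets. For Emcn the KO effect was -0.27 at 6 months and 0.44 at 3 months, and for Abcb1a it was -0.91 and -0.17.

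Of 18 further endothelial genes 5 fell and none rose in KO liver at 6 months, where 5.81% of all probe sets fell: Podxl, a sialomucin of the endothelial surface, by 1.46 on the log2 scale (adjusted p = 2.78e-08), and Cd34 (-0.65), Rasip1 (-0.64), Adgrl4 (-0.49) and Mmrn2 (-0.37). The Podxl call stayed without each of the mice, whereas the other 4 were each lost without at least 2 of the mice. Nested F decisions also lost the calls of Cd34, Rasip1 and Mmrn2 at 6 months. At 3 months 1 of 18 was called, beside 4.92% of all probe sets higher: Rasip1, a regulator of vessel lumens, which rose by 0.70 (adjusted p = 0.0102), a call lost without WT 1, WT 3 or KO 122970 (0.0611 to 0.163), with values of 0.44 to 0.95 when 1 mouse was left out. When liver was fitted alone, the calls of Podxl, of Cav1 and Sox7 at 6 months and of Mfsd2a stayed among the genotype calls of the listed genes outside the 33, and no other did.

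Of 14 further barrier transport genes 3 rose and 2 fell at 3 months, beside 4.92% and 4.53% of all probe sets. At 6 months 2 rose and 2 fell, beside 5.68% and 5.81%. Cav1, the coat protein of caveolae, read 6.17, 5.60 and 5.69 in KO and 7.52, 7.51 and 7.46 in WT liver at 6 months, and 6.41, 6.47 and 5.99 in KO and 5.39, 5.68 and 5.54 in WT liver at 3 months. The groups did not overlap at either age, and the change was -1.68 (adjusted p = 4.86e-11) at 6 months and 0.76 (adjusted p = 0.000335) at 3 months. Mfsd2a rose by 1.47 at 3 months (adjusted p = 4.33e-08) and differed by 0.24 at 6 months (adjusted p = 0.373). Tfrc, the transferrin receptor, fell by 1.23 at 3 months (adjusted p = 6.52e-06). Slc16a1, a monocarboxylate carrier, rose by 0.37 at 3 months (lost without WT 3, KO 122970 or KO 122973) and by 0.60 at 6 months. Slc6a6, the taurine carrier, fell by 0.36 at 3 months (lost without WT 3 or KO 122972) and by 0.41 at 6 months. The means over the probe sets of Slc16a1 and Slc6a6 gave no call at 3 months (adjusted p = 0.18 and 0.0873). Slc22a8 rose at 6 months (0.56, adjusted p = 0.0193, lost without WT 2, WT 3 or KO 122972).

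The calls of the lists below stand beside 4.92% of all probe sets higher and 4.53% lower in KO liver at 3 months. At 6 months these shares were 5.68% and 5.81%. In the Notch, TGF-beta and S1P list Notch4 rose at 3 months on its brightest probe set (0.87, adjusted p = 0.000273), but the mean over its probe sets was 0.19 (adjusted p = 0.214). At 6 months Ephb4 (-0.67), the growth factor Tgfb1 (-0.42) and the lipid receptor S1pr1 (-0.45) fell and Tgfbr1 rose (0.28), each lost without 2 or more of the mice. Of the Wnt list Sox7, an endothelial factor, fell at 6 months (-0.90, adjusted p = 1.03e-05), and Foxq1 rose (1.49, adjusted p = 0.00355, lost without KO 122973). At 3 months Axin2, a target of beta-catenin, fell (-0.75, adjusted p = 0.000101) and Lrp6, a Wnt co-receptor, rose (0.49, adjusted p = 0.0153, lost without WT 1 or WT 3). Of the ligands Vegfb fell (-0.45, adjusted p = 0.00148) and Pdgfb rose (0.48, adjusted p = 0.0317, kept only without WT 2 or KO 122972) at 6 months. The basement membrane genes Nid1 (0.56, adjusted p = 0.0102) and Sparc (0.43, adjusted p = 0.000118) rose at 3 months, when Atp13a5 of the pericyte list fell (-0.54, adjusted p = 0.0145, lost without KO 122972). Of 9 markers of liver sinusoids Oit3 rose at both ages (0.34 and 0.32 at 3 and 6 months), each time kept only without 2 of the mice, and Dnase1l3 fell at 6 months (-0.40, adjusted p = 0.00509). The median change of the 9 was 0.17 at 3 months and 0.06 at 6 months. Of the 6 macrophage markers Clec4f, a lectin of Kupffer cells, and Csf1r rose in KO liver at 6 months (0.55 and 0.40), Clec4f being lost without KO 122970 (adjusted p = 0.064) and Csf1r without WT 2 or KO 122970 (0.067 to 0.0675). The mean of the 6 was 6.35 to 6.85 in KO and 6.17 to 6.43 in WT liver, and the part of these cells in the liver values was not tested. Of the markers of neural cells Aqp4 (1.52) and Gja1 (0.71) rose and Syt1 (-0.61) and Nefl (-0.44) fell at 3 months. At 6 months Mbp rose (0.60) and Syt1 fell (-0.33). The calls of Aqp4, Gja1 and Syt1 at 3 months stayed without each of the mice. That of Nefl stayed only without WT 2 or KO 122973 (adjusted p = 0.0951 to 0.201 otherwise). That of Syt1 at 6 months stayed only without WT 3 or KO 122970 (0.0901 to 0.369 otherwise). Mbp was lost without WT 1 or KO 122973 (0.0934 to 0.0941), and the mean over its probe sets was 0.06 (adjusted p = 0.802). Of the calls of these lists, nested F decisions lost Lrp6, Nid1, Atp13a5 and Nefl at 3 months. At 6 months they lost Ephb4, Tgfbr1, S1pr1, Foxq1, Vegfb, Pdgfb, Dnase1l3, Clec4f, Mbp and Syt1. The means over the probe sets of Tgfbr1, Dnase1l3 and Atp13a5 gave no call (adjusted p = 0.585, 0.0576 and 0.138).

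Between tissues the 33 genes differed far more than between genotypes. Each tissue was averaged over both genotypes and ages, 12 arrays per tissue. Spinal cord was above cerebellum for 28 genes and below it for 2, beside 60.7% of all probe sets called (29.9% higher and 30.8% lower). Midbrain was above cerebellum for 24 and below for 3, beside 55.3% (28.1% and 27.2%), and spinal cord was above midbrain for 22 and below for 2, beside 41.4% (19.6% and 21.8%). The median difference of the 33 genes was 0.53, 0.29 and 0.25, beside -0.02, -0.01 and -0.02 over all probe sets. For 27 of the 33 genes the order of the means was spinal cord, midbrain, cerebellum, an order found for 21.9% of all probe sets. All 12 spinal cord arrays lay above all 12 cerebellum arrays for 16 genes, beside 16.2% of all probe sets. Of 18 further endothelial genes 16 were higher in spinal cord than in cerebellum and 12 were higher in midbrain. Other markers moved along: 5 of 5 blood cell genes (median 1.82), 5 of 5 skeletal muscle genes (2.39), 5 of 6 microglial genes (1.57) and 5 of 6 meningeal fibroblast genes (1.23) were higher in spinal cord than in cerebellum. In WT mice at 3 months 6 oligodendrocyte genes averaged 8.51 to 8.66 in spinal cord, 8.20 to 8.25 in midbrain and 7.16 to 7.21 in cerebellum. For 6 astrocyte genes these means were 8.52 to 8.55, 7.95 to 7.99 and 7.76 to 7.84. Those of 6 neuron genes had another order, at 10.94 to 11.02, 11.11 to 11.13 and 11.07 to 11.13. The part of all these cells in the vascular values was not tested. With the 5 spinal cord arrays left out in which the skeletal muscle markers averaged above 5, a choice made after those values were seen, 30 genes were still called against cerebellum and 18 against midbrain. This removed all 3 KO spinal cord arrays of 3 months, so that each tissue was averaged over the 3 genotype and age groups left.

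Between spinal cord and cerebellum the widest difference was that of Vwf, which ran from 6.78 to 7.62 (median 7.18) in spinal cord and from 5.60 to 6.55 (median 5.86) in cerebellum, a difference of 1.30 (SE 0.11, adjusted p = 2.14e-13) without overlap. Midbrain, at 5.27 to 6.94, was not told apart from cerebellum (0.16, adjusted p = 0.221). Ctla2a showed the same order, with 5.92 to 6.90 in spinal cord, 4.80 to 5.88 in midbrain and 4.53 to 5.72 in cerebellum, and differed by 1.22 (SE 0.07) between spinal cord and cerebellum. Abcg2, a further efflux pump, read 7.80 to 8.27 in spinal cord, 7.11 to 7.56 in midbrain and 6.73 to 7.21 in cerebellum (1.08, SE 0.04, spinal cord minus cerebellum, adjusted p = 1.49e-24). All 5 measured genes of the pericyte group, Cspg5 among them, were higher in spinal cord than in cerebellum, from Vtn at 0.25 to Kcnj8 at 0.76, and Rgs5 read 10.46 to 10.69 in spinal cord and 9.89 to 10.11 in cerebellum. Cldn5 differed by only 0.32 between spinal cord and cerebellum (SE 0.06, adjusted p = 2.79e-05), and spinal cord and midbrain were not told apart (0.12, adjusted p = 0.123).

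Ocln went the other way. It read 6.06 to 6.37 in spinal cord, 6.16 to 6.46 in midbrain and 7.12 to 7.68 in cerebellum, and the differences from cerebellum were -1.19 for spinal cord (SE 0.07, adjusted p = 1.85e-18) and -1.12 for midbrain (adjusted p = 1.61e-17). Occludin also seals epithelia. Of the 5 choroid plexus markers 5 were lower in spinal cord and 4 lower in midbrain than in cerebellum, beside 30.8% and 27.2% of all probe sets. Their means were 4.93 to 7.84 in KO and 4.86 to 7.89 in WT cerebellum at 3 months. Their part in the Ocln values was not tested. Lef1 peaked in midbrain, at 3.76 to 4.85, against 2.51 to 3.27 in cerebellum (1.39, SE 0.09, adjusted p = 4.58e-17) and 2.79 to 3.33 in spinal cord. Cspg5 also read highest in midbrain, at 8.52 to 8.77, against 7.20 to 7.56 in cerebellum (1.27, adjusted p = 3.76e-15). Ramp2 was lower in spinal cord than in cerebellum on its brightest probe set (-0.17, adjusted p = 3.05e-05).

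**Figure D4:**
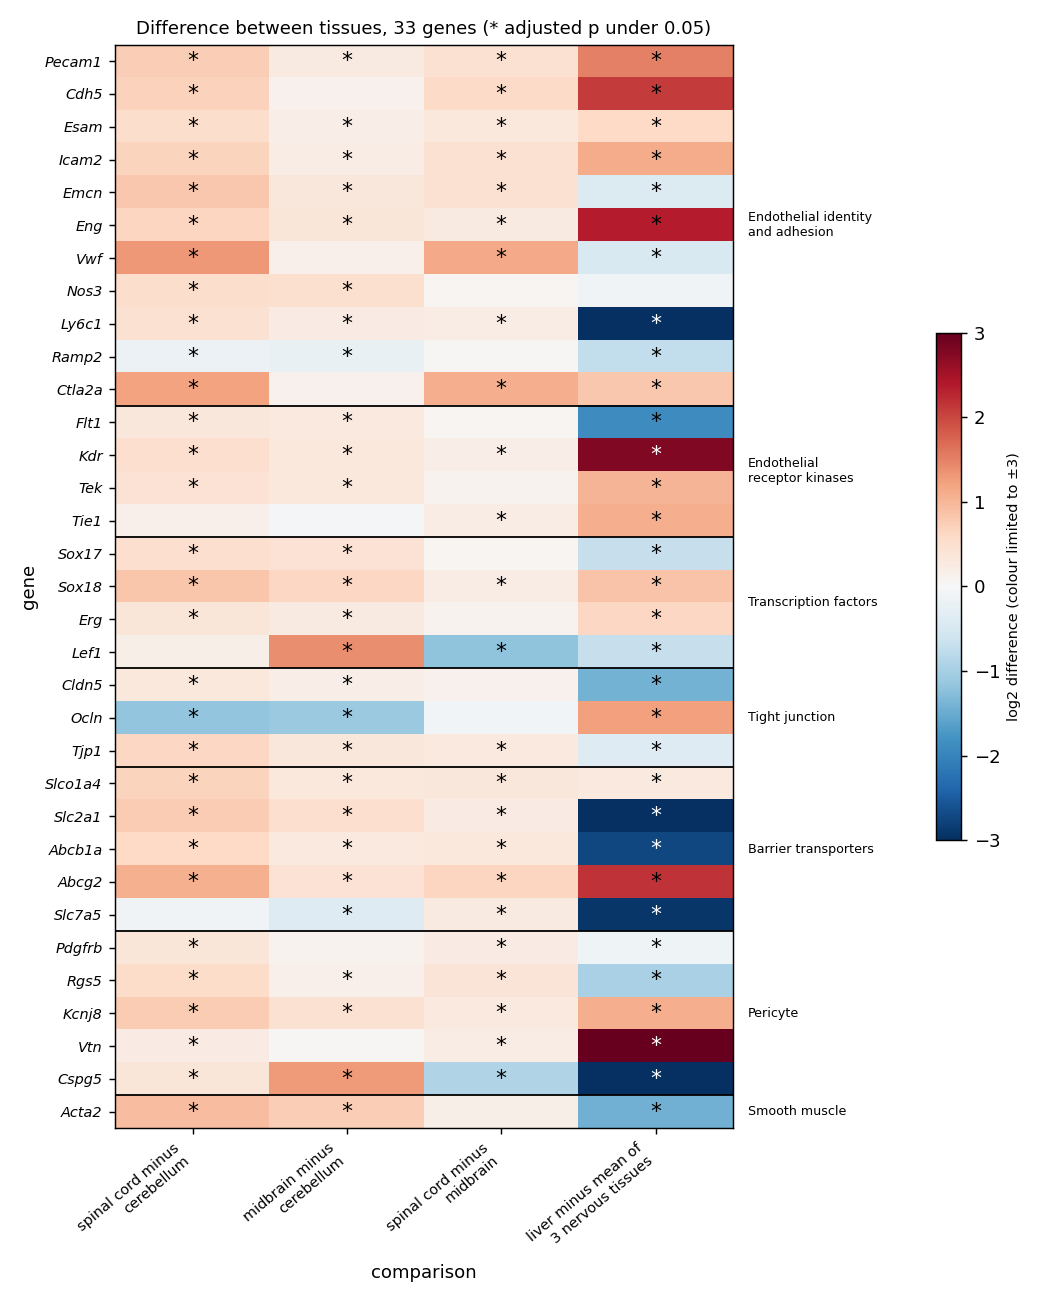
Log2 differences between tissues for the 33 genes (rows, grouped by role), red where the first-named tissue was higher and blue where it was lower, the colour limited to ±3, with an asterisk where the adjusted p from limma was under 0.05 (12 arrays per tissue). The first column is red except for Ramp2, Ocln and, uncalled, Slc7a5, and the liver column holds both the deepest reds and the deepest blues.

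Liver differed from the mean of the 3 nervous tissues for 32 genes, 16 higher and 16 lower, beside 88.5% of all probe sets (51.5% higher and 36.9% lower). The array medians of liver differed by -0.29 from those of nervous tissue, and gene differences of that size cannot be told apart from the scale of the arrays. The barrier transporters split, with Slc2a1, Slc7a5 and Abcb1a lower and Abcg2 and Slco1a4 higher in liver, and so did the tight junction genes, with Cldn5 and Tjp1 lower (-1.42 and -0.38) and Ocln higher (1.24). Ly6c1 read 3.85 to 5.54 in liver and 8.36 to 9.33 over the nervous tissues (-4.15, SE 0.05). Slc2a1 read 5.94 to 7.002 in liver and 8.71 to 10.37 in nervous tissue (-3.05, SE 0.07), Slc7a5 4.34 to 5.97 in liver and 7.69 to 8.59 in nervous tissue (-2.92, SE 0.09), and Abcb1a 3.78 to 5.78 in liver and 7.37 to 8.05 in spinal cord, its highest nervous tissue (-2.74 against all 3, SE 0.05). Flt1 (-1.88) and Acta2 (-1.43) were lower as well. Kdr read 7.99 to 8.55 in liver and 4.83 to 6.15 in nervous tissue (2.77, SE 0.05), opposite to Flt1, its fellow VEGF receptor. Eng (2.36), Cdh5 (2.10), Pecam1 (1.51), Icam2 (1.10) and Tie1 (1.09) were higher in liver too, and so were Abcg2 (2.17), which hepatocytes also use, and Vtn (3.26), a plasma protein made by hepatocytes. All 12 liver arrays lay above all 36 nervous tissue arrays for 9 of the 33 genes (Pecam1, Cdh5, Eng, Kdr, Tek, Tie1, Abcg2, Kcnj8 and Vtn), beside 14.7% of all probe sets, and below them for 9 (Ly6c1, Ramp2, Flt1, Cldn5, Slc2a1, Abcb1a, Slc7a5, Rgs5 and Cspg5), beside 16.2%. Nos3 was not called (-0.10, adjusted p = 0.128). Pdgfrb was lower in liver by the scale of the files (-0.12) and higher with each array centred on its median (0.17). For Slco1a4 the difference of 0.30 depended on the genotype of the mice, at -0.067 in WT mice alone.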

How the data were processed

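Total RNA of 4 tissues was labelled with a 3′ IVT kit and hybridised to Affymetrix mouse arrays (48 arrays, 16 groups). The authors corrected background, quantile normalized and summarized all arrays with RMA in R 2.14.0, and deposited the log2 values used here. From these values 104 control probe sets were dropped, and a model of 16 group means was fitted to the other 45037 in R 4.3.3 with limma 3.58.1 (residual df 32, moderated 2-sided tests, Benjamini-Hochberg over all probe sets in each of 24 comparisons, called under 0.05). In the platform annotation 28898 probe sets carried 1 symbol, 551 carried several and 15588 carried none. The members and lists were chosen with earlier results of these data known. Any member could be named. Values by array were given for members called between genotypes and, per role, for the 2 with the largest mean change, and list genes were named when called between genotypes. Arrays with the same number, genotype and age were taken as tissues of 1 mouse (12 mice). Deviations from the group means correlated by a median of 0.05 between tissues of a mouse (72 pairs) and -0.02 between mice (144 pairs). For the same number at the other age, in the same tissue, the median was -0.003 (24 pairs). Alternatives were quantile normalization within tissues, each tissue alone, leaving out dim probe sets, another prior and the mouse as a replicate block (statmod 1.5.0). Others were the mean of a gene's probe sets, nested F decisions, WT mice only, and leaving out each mouse with its 4 arrays. The methods name a moderated F-statistic and limma's decision function but not the nested F option. Centring on array medians and leaving out spinal cord arrays with muscle transcripts were added after the data were seen. The fit was tested on simulated data.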

Additional observations from a re-analysis of the deposited data

Results flagged for a closer look

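In liver the KO effect differed between the ages for 2 genes, by limma's test of the difference of the differences (KO minus WT at 6 months, minus KO minus WT at 3 months). For Emcn, the endothelial mucin, this was -0.70 (SE 0.20, adjusted p = 0.0243), with a KO effect of -0.27 at 6 months and 0.44 at 3 months. It stayed past the threshold in 6 of 12 fits that each left out 1 mouse (adjusted p = 0.0501 to 0.107 in the others, without WT 1, KO 122970 or KO 122972 of 3 months or WT 1, WT 2 or KO 122972 of 6 months), and not with liver fitted alone (adjusted p = 0.444). For Abcb1a, the efflux pump, it was -0.74 (SE 0.17, adjusted p = 0.00466), in 12 of 12 such fits, but not with liver fitted alone (adjusted p = 0.432). A further probe set of Abcb1a had a KO effect of -1.10 at 6 months and 0.80 at 3 months. No such difference was called in spinal cord, cerebellum or midbrain.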

How the results depend on the processing

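With 3 mice per group, differences of under about 0.6 in nervous tissue mostly missed the threshold, and dim genes such as Tie1 and Lef1 may be understated. Counts are of the 33 genes. Nested F decisions over the 8 genotype comparisons gave 2, 1 and 2 at 3 months in spinal cord, cerebellum and midbrain, beside 1.17%, 1.49% and 1.21% of all probe sets, and 3, 4 and 6 at 6 months, beside 0.904%, 0.946% and 0.893%, the last being Vwf, Ly6c1, Ctla2a, Flt1 and Cldn5 higher and Emcn lower in KO mice. In liver they gave 4 at each age, beside 4.62% and 5.14%. Each tissue fitted alone gave 1 in cerebellum and 1 in midbrain at 3 months, 0 in liver at either age, 0, 0, 2 and 1 for age in KO liver, WT spinal cord, WT cerebellum (without Cldn5) and WT liver, and 0 for the age difference in liver. The mean over all probe sets of a gene gave 2 in cerebellum at 6 months and 3 for age in KO liver. The 28504 probe sets above the array median gave 2 for age in WT cerebellum and 4 in WT liver, and another prior gave 2, 2 and 4 in WT cerebellum, midbrain and liver. Leaving out 1 mouse gave 0 to 1 genes in spinal cord, 1 in cerebellum, 0 to 2 in midbrain and 3 to 5 in liver at 6 months, and 2 to 4 in liver at 3 months. For age it gave 3 to 6 in KO liver, 0 to 1 in WT spinal cord, cerebellum and midbrain, and 2 to 5 in WT liver, and for the age difference in liver 1 to 4. The mouse as a replicate block (consensus correlation 0.0303) changed no call, with 30 genes again between spinal cord and cerebellum, and quantile normalization within tissues changed no count beyond 1.5 times. Between tissues, Slco1a4 (liver minus nervous tissues 0.30) was -0.067 in WT mice only, and Pdgfrb (-0.12) was 0.17 with centred arrays. Causes were not tested.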
